A study of Mus musculus with 10 samples.

Results

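Ttr, Kcnj13, Folr1, Clic6, Otx2, Kl, Enpp2, Aqp1, Kcne2 and Slc4a5 are 10 genes known for their expression in the epithelium of the choroid plexus. They were taken by symbol from the 39769 gene symbols of the deposited table, which held all 10. Each of the 10 was also among the 15617 genes kept for testing, with a lowest value of 74 counts (Aqp1 in NKP 1) and a highest of 69328 counts (Ttr in NKP 2).

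The libraries came from mouse cerebellum or from medulloblastoma, a tumour of the cerebellum. The 4 libraries of the Ptch group are labelled cerebellum with genotype Ptch+/-, in which 1 copy of the hedgehog receptor gene Ptch1 is lost. Ptch 1 and Ptch 2 were labelled 4 months of age and Ptch 3 and Ptch 4 2 months. The 3 NKP libraries are labelled medulloblastoma, carry Nestin-Cre, Kmt2dfl/+ and Ptch+/-, and were all taken at 4 months. The 3 AKP libraries are labelled medulloblastoma and carry AtohI-Cre, Kmt2dfl/+ and Ptch+/-, of which AKP 3 is labelled 4 months of age and the other pair 2 months. All groups thus share Ptch+/-, and none of the libraries used here carries 2 intact copies of Ptch1. Nestin-Cre acts in neural stem and progenitor cells and their descendants, and an Atoh1-driven Cre in granule neuron precursors, so 1 Kmt2d copy is floxed in every cell and lost only where the Cre acts. The labels do not state that each library is a separate mouse, so the p-values speak of library-to-library spread, which may be technical.

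The choroid plexus is a folded sheet of ciliated epithelium over blood vessels that hangs in each brain ventricle, including the fourth ventricle beneath the cerebellum. Its epithelium secretes the cerebrospinal fluid by moving ions and water from blood to ventricle, and it makes carrier proteins and hormones for that fluid. It arises next to the roof plate under the control of the transcription factor Otx2, which is also made by some cerebellar granule neuron precursors. In bulk libraries fewer cells of a type and less RNA per cell cannot be told apart.

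Several libraries stood apart before any comparison. Total counts ran from 12300430 to 19348991. In 4 libraries (Ptch 1, Ptch 3, NKP 3 and AKP 3) the Y-linked genes did not match the labelled sex. NKP 2 had both Xist (74.8 CPM) and Y-linked genes (68.4 CPM summed over 4 genes). Lower Xist beside Y-linked genes was seen in NKP 1 (11.9 CPM), AKP 1 (15.0 CPM), Ptch 3 (10.2 CPM) and AKP 3 (5.38 CPM). In Ptch 4, NKP 3 and AKP 2, which also had Y-linked genes, Xist was at 0.433 to 0.444 CPM. CPM stands for counts relative to the library size (counts per 1000000), with library sizes scaled by edgeR's TMM method. Kmt2d, the floxed gene, was at 52.6 to 68.4 CPM in the Ptch libraries, at 33.2, 46.9 and 58.0 CPM in NKP 1 to 3 and at 34.3 to 43.6 CPM in the AKP libraries. The library labelled NKP 3 therefore overlapped the Ptch libraries, although a gene-level count may miss a lost exon. The proliferation gene Mki67 ran from below 1 CPM (AKP 1, NKP 1 and NKP 2) to 84.1 CPM (Ptch 1). Ptch 1 and Ptch 2 (80.4 CPM), labelled cerebellum, were above every library labelled medulloblastoma, of which AKP 2 was highest (49.1 CPM). The labels and this gene thus did not go together.

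Starts of transcription were looked up for the members in RefSeq (GRCm38.p6), which gave 10 upstream windows of 250 bases for 6 of the 10 genes. Kcnj13 and Kcne2 are shown because they had the widest range of levels over the libraries, and Aqp1 because it was lower in every AKP than in every Ptch library and its window holds a match. Slc4a5 was lower in the same way, but its window lies inside the gene, so it is not shown, nor is the second window of Kcne2 for the same reason. Capitals mark TAATC or its reverse complement GATTA, the core that OTX-type homeodomain proteins bind, and GTTGCC or its reverse complement GGCAAC, a half-site of RFX factors, which act on cilia genes. The windows end at the base before the start and read 5′ to 3′ on the gene's strand.
Kcnj13 (GRCm38.p6, chr1:87394730-87394979, minus strand): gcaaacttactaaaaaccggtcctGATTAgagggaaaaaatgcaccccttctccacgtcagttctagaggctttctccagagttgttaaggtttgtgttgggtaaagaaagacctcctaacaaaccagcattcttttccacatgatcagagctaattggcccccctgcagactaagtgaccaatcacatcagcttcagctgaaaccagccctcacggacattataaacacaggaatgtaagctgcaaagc
Kcne2 (GRCm38.p6, chr16:92292139-92292388, plus strand): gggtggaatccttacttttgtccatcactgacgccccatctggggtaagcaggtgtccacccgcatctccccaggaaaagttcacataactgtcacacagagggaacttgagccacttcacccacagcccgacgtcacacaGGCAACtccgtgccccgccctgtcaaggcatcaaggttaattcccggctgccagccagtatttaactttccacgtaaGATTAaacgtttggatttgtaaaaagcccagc
Aqp1 (GRCm38.p6, chr6:55336049-55336298, plus strand): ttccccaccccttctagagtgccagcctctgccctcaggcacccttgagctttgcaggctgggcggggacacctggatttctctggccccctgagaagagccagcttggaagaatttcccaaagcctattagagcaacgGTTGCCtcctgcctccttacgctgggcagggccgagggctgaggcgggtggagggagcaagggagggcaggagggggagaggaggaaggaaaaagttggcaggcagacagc

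In Kcnj13 the TAATC core lay on the reverse strand with its first printed base 226 bases before the start. Kcne2 had the same core 32 bases and the GTTGCC half-site 109 bases before its start, both as the reverse complement. Aqp1 had GTTGCC 111 bases before its start. Counting both strands, TAATC was in 3 of the 10 member windows (1 each of Kcnj13, Kcne2 and Otx2) and in 19.84% of all 32851 such windows. The longer form TAATCC, which contains TAATC, was in 1 of 10 (Otx2) and in 6.252% of all windows. GTTGCC was in 4 of 10 (1 each of Aqp1 and Kcne2 and 2 overlapping ones of Otx2) and in 10.43% of all windows. In all, 10 motifs were searched on both strands, and the 3 above were picked for their matches after these had been seen. Of the other 7, CAGCTG was in 1 of 10 (13% of all windows) and TATAAA in 3 of 10 (12.37%). None of the 10 windows had GTTGCCATG, which contains GTTGCC (0.6423% of all windows), GGAAGT (19.74%), TGTTTAC (3.166%), TGTTTGC (4.301%) or the HNF1 palindrome (0.009132%). The matches describe the letters of the windows only.

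The members differed widely in level. Divided by the length of the longest annotated transcript, Ttr was by far the most abundant, with 1969.6 ± 539 CPM per kilobase (SD over all 10 libraries). Ttr encodes transthyretin, the carrier of thyroid hormone and, with retinol binding protein, of retinol in blood and cerebrospinal fluid. Enpp2, which encodes autotaxin, the secreted enzyme that makes lysophosphatidic acid, followed at 211 ± 82.5 CPM per kilobase (SD, n = 10), or 10.7% of the Ttr level. Folr1, Kcnj13, Kcne2 and Clic6 had 13.1 ± 3.94, 11.9 ± 6.25, 11.3 ± 5.86 and 10.2 ± 2.96 CPM per kilobase (SD, n = 10), and Otx2 8.25 ± 2.06. Neighbours within these 5 differed by less than 1 SD. Kl had 5.65 ± 2.54, Aqp1 4.44 ± 1.65 and Slc4a5, the lowest, 1.99 ± 0.729 CPM per kilobase (SD, n = 10). Ttr alone made up 71.5% to 78.1% of the counts of the 10 genes, and all 10 together 0.214% (NKP 1) to 0.530% (NKP 2) of a library.

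**Figure D1:**
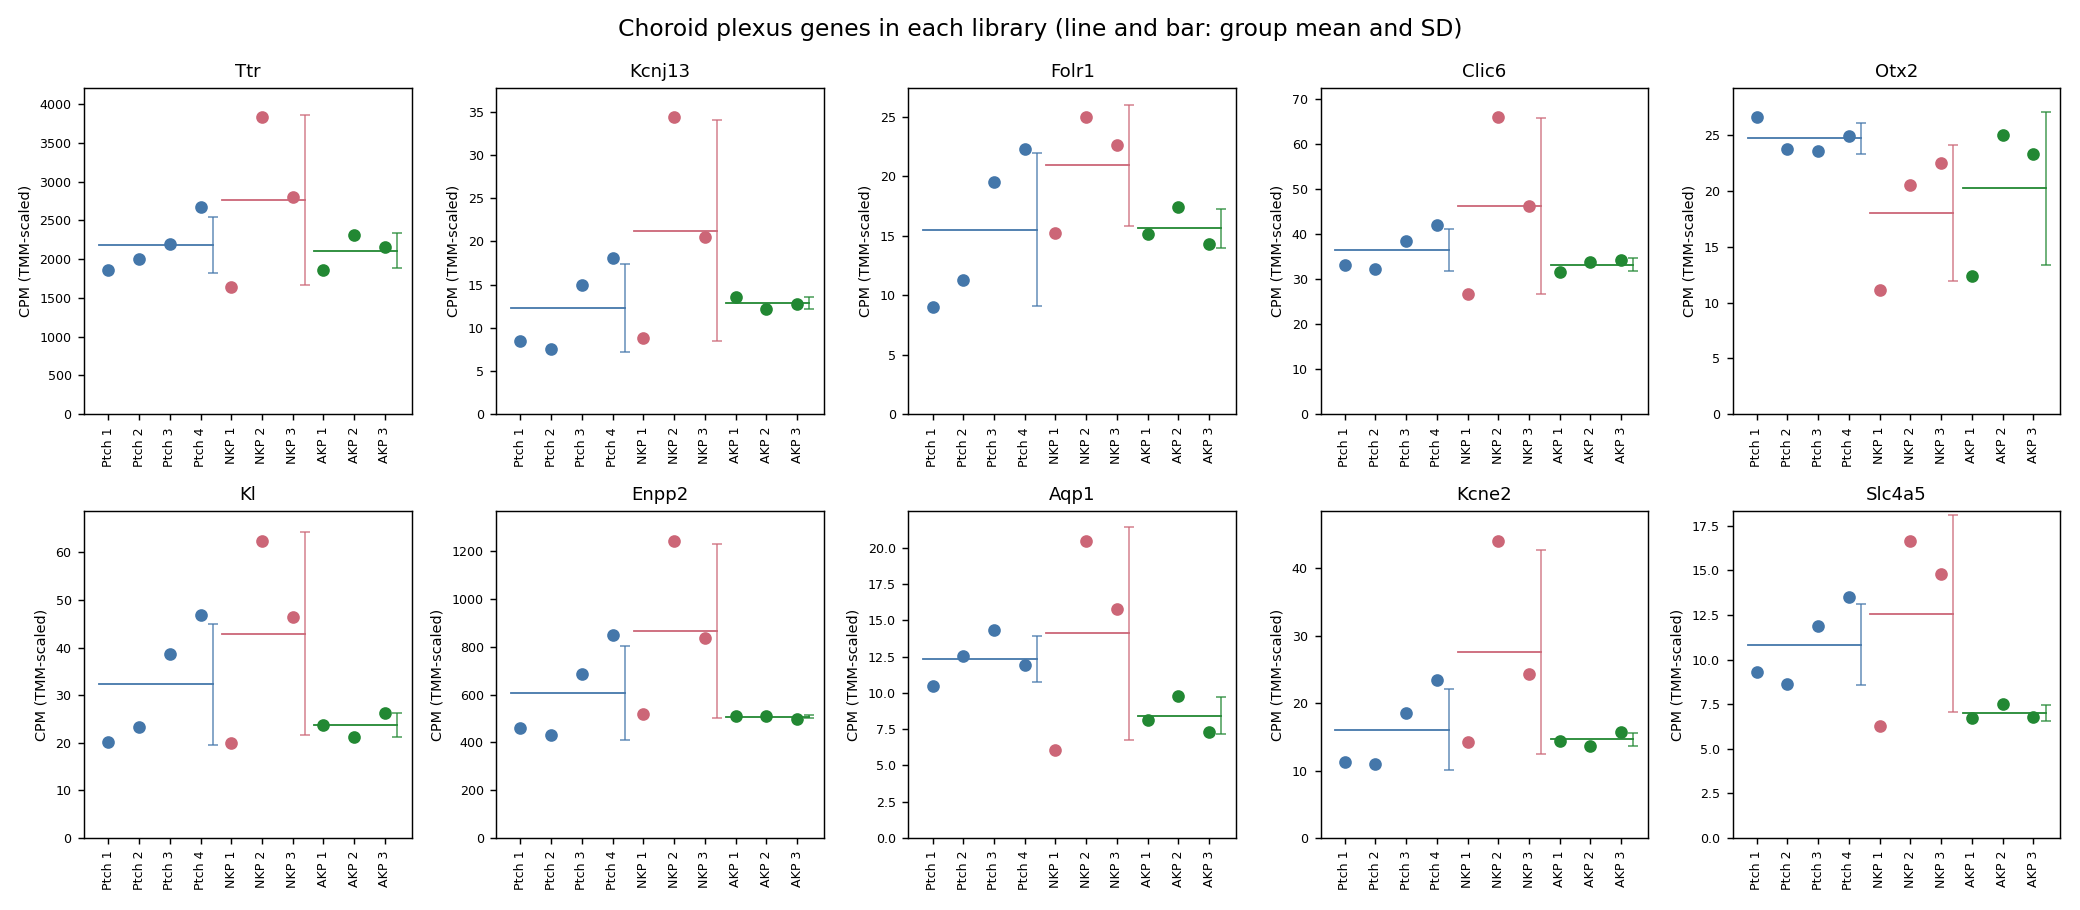
Level of each of the 10 genes (y axis, TMM-scaled CPM, from 0) in each of the 10 libraries (x axis), coloured by group, with the group mean as a line and the SD as a bar. NKP 2 is the highest library in every panel except Otx2, and NKP 1 lies among the lowest in most panels.

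No member passed the test in any of the 3 comparisons. By edgeR's quasi-likelihood test with Benjamini-Hochberg adjustment over all 15617 genes, 0 of 10 were called in NKP against Ptch, where 0% of all genes were called. In AKP against Ptch it was 0 of 10, against 5.68% of all genes (887), and in AKP against NKP 0 of 10, against 0.0064%. At an unadjusted p below 0.05 the numbers were 0, 1 (Slc4a5) and 3 (Enpp2, Aqp1 and Slc4a5) of 10, beside 17%, 25.1% and 16.9% of all genes tested. The 887 calls fell to 0 without AKP 3, to 1 without any single one of AKP 2, Ptch 1 and Ptch 2, to 183, 321 and 553 without Ptch 4, Ptch 3 and NKP 2, and rose to 1250 without NKP 1 and to 1459 without AKP 1. Without AKP 1 the single call of AKP against NKP became 1364. Members called were 0 in each of these fits. DESeq2 also called 0 of 10 in each comparison, where it called 2.71%, 13.7% and 2.17% of the genes it gave an adjusted p. It gave none for 5 of the 10 in AKP against NKP. The median log2 fold change of the 10 was 0.38 in NKP against Ptch, -0.20 in AKP against Ptch and -0.75 in AKP against NKP, beside medians of 0.01, -0.02 and -0.01 over all genes tested. Comparisons of NKP and AKP with Ptch share the Ptch libraries, and each shares its NKP or AKP libraries with AKP against NKP.

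**Figure D2:**
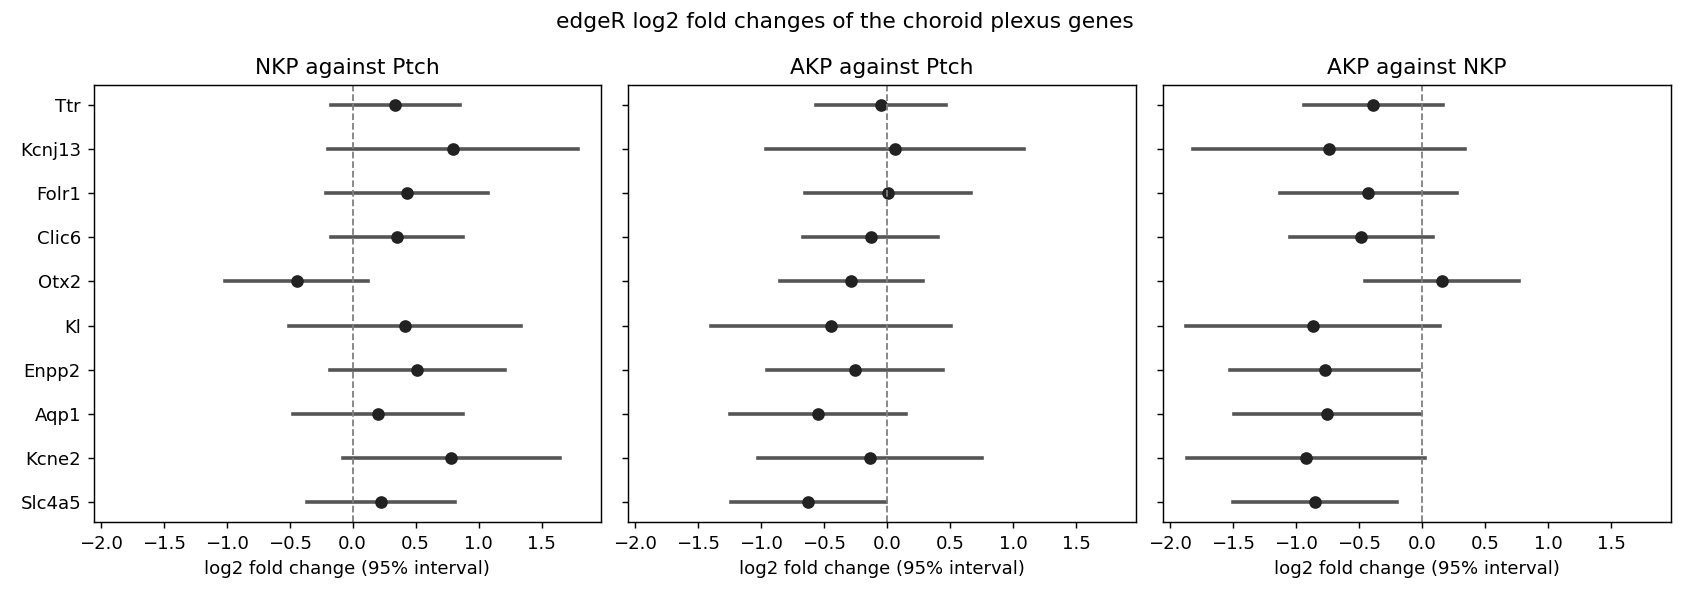
edgeR log2 fold change (x axis) of each gene (y axis) in the 3 comparisons, with its 95% interval as a bar. In NKP against Ptch 9 of 10 points are above 0 with Otx2 below, and in AKP against NKP 9 of 10 are below 0 with Otx2 above.

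Among the secreted carriers and enzymes, Ttr (chromosome 18, 20664209 to 20674326, GRCm38.p6) was at 1858, 2003, 2202 and 2680 CPM in Ptch 1 to 4. It was at 1642, 3832 and 2808 CPM in NKP 1 to 3 and at 1866, 2310 and 2157 CPM in AKP 1 to 3. NKP 1 and NKP 2 were thus the lowest and the highest of all 10 libraries, although both carry the same label. The log2 fold change was 0.34 (SE 0.233, edgeR adjusted p = 0.475) in NKP against Ptch and -0.05 (SE 0.234, adjusted p = 0.924) in AKP against Ptch, with a 95% interval from -0.56 to 0.46 for the latter.

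Enpp2 (chromosome 15, 54838901 to 54952789) was at 460.1, 433, 684 and 847 CPM in Ptch 1 to 4, at 519, 1242 and 835 CPM in NKP 1 to 3, and at 512, 509 and 499 CPM in AKP 1 to 3. The 3 AKP libraries lay close together and below every NKP library, by a narrow margin from NKP 1. Of all genes tested, 9.52% were lower in every AKP than in every NKP library. The log2 fold change in AKP against NKP was -0.77 (SE 0.331, edgeR adjusted p = 0.287). Oligodendrocytes also make Enpp2. The summed level of 14 oligodendrocyte genes was highest in NKP 1 (13696 CPM) and AKP 1 (12371 CPM), where Enpp2 was at 519 and 512 CPM, and was 9961 CPM in NKP 2, the library highest in Enpp2. Their part in the Enpp2 level was not tested.

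Kl (chromosome 5, 150952607 to 150993817) encodes Klotho, a membrane protein that serves with FGF receptors as a receptor for FGF23 and is also shed into the cerebrospinal fluid. It was at 20.2, 23.4, 38.6 and 46.9 CPM in Ptch 1 to 4, at 20.0, 62.4 and 46.4 CPM in NKP 1 to 3, and at 23.7, 21.2 and 26.2 CPM in AKP 1 to 3. All AKP libraries were below Ptch 3, Ptch 4, NKP 2 and NKP 3, and all were above Ptch 1 and NKP 1. AKP was at 0.549 of the NKP level by the fit (log2 fold change -0.86, SE 0.440, adjusted p = 0.350, edgeR).

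Folr1 (chromosome 7, 101858331 to 101870788) encodes folate receptor alpha, through which the epithelium passes folate from blood to the ventricle. It was at 9.00, 11.3, 19.5 and 22.3 CPM in Ptch 1 to 4, at 15.2, 25.0 and 22.6 CPM in NKP 1 to 3, and at 15.1, 17.5 and 14.3 CPM in AKP 1 to 3. Ptch 1 and Ptch 2 were the lowest of all libraries, and the groups overlapped in every comparison. In NKP against Ptch its log2 fold change was 0.43 (SE 0.291, edgeR adjusted p = 0.466). With age as a covariate it was 0.86 with an adjusted p of 0.0509, the lowest adjusted p of any member under any alternative, in a fit that called 5.97% of all genes.

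Among the channels and transporters of fluid secretion, Kcnj13 and Kcne2 had the widest ranges. Kcnj13 (chromosome 1, 87384577 to 87394729) encodes the inward rectifier potassium channel Kir7.1 of the apical membrane. It was at 8.47, 7.59, 15.0 and 18.1 CPM in Ptch 1 to 4, at 8.83, 34.4 and 20.5 CPM in NKP 1 to 3, and at 13.6, 12.2 and 12.7 CPM in AKP 1 to 3. The highest library, NKP 2, was 4.53 times the lowest, Ptch 2. NKP and Ptch differed by a log2 fold change of 0.80 (SE 0.437, edgeR adjusted p = 0.380), with a 95% interval from -0.20 to 1.79.

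Kcne2 (chromosome 16, 92292389 to 92298133) encodes a small partner subunit of voltage-gated potassium channels such as Kcnq1. It was at 11.2, 11.1, 18.5 and 23.5 CPM in Ptch 1 to 4, at 14.3, 44.1 and 24.4 CPM in NKP 1 to 3, and at 14.5, 13.7 and 15.7 CPM in AKP 1 to 3. NKP 2 again stood far above the rest, at 2.70 times the mean of the other 9 libraries. The log2 fold change was 0.78 (SE 0.379, edgeR adjusted p = 0.328) in NKP against Ptch and -0.92 (SE 0.415, adjusted p = 0.302) in AKP against NKP.

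Clic6 (chromosome 16, 92498147 to 92541241) is a member of the chloride intracellular channel family. It was at 33.0, 32.1, 38.4 and 41.9 CPM in Ptch 1 to 4, at 26.7, 65.9 and 46.1 CPM in NKP 1 to 3, and at 31.6, 33.8 and 34.1 CPM in AKP 1 to 3. NKP 1 was the lowest and NKP 2 the highest library, as for Ttr, and the highest was 2.46 times the lowest.

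Aqp1 and Slc4a5 were the members whose AKP libraries all lay below all Ptch libraries. Aqp1 (chromosome 6, 55336299 to 55348555) encodes the apical water channel aquaporin 1. It was at 10.5, 12.6, 14.3 and 11.9 CPM in Ptch 1 to 4, at 6.05, 20.5 and 15.8 CPM in NKP 1 to 3, and at 8.14, 9.81 and 7.30 CPM in AKP 1 to 3. Its AKP mean was 8.42 ± 1.28 CPM (SD, n = 3) and its Ptch mean 12.3 ± 1.59 CPM (SD, n = 4), a log2 fold change of -0.55 (SE 0.319, edgeR adjusted p = 0.315). Slc4a5 (chromosome 6, 83207580 to 83304945) encodes NBCe2, a sodium bicarbonate cotransporter of the apical membrane. It was at 9.31, 8.63, 11.9 and 13.5 CPM in Ptch 1 to 4, at 6.30, 16.6 and 14.8 CPM in NKP 1 to 3, and at 6.74, 7.50 and 6.78 CPM in AKP 1 to 3.

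Slc4a5 had the smallest unadjusted p of the 10 in AKP against Ptch and did not pass over all genes. The AKP mean was 7.01 ± 0.430 CPM (SD, n = 3) and the Ptch mean 10.8 ± 2.26 CPM (SD, n = 4). The log2 fold change was -0.63 (SE 0.284, edgeR adjusted p = 0.193, unadjusted p = 0.0471). Over the 20 alternatives its change ran from -0.71 to -0.48, with a lowest adjusted p of 0.0559, without NKP 1. Non-overlap of this kind was common, since 12% of all genes tested were lower in every AKP than in every Ptch library. Red blood cells also make Aqp1. The summed level of 8 red blood cell genes was 1808 to 2305 CPM in AKP and 771 to 871 CPM in Ptch. It was 2563, 1302 and 835 CPM in NKP 1 to 3, where Aqp1 was at 6.05, 20.5 and 15.8 CPM. The part of these cells in the Aqp1 level was not tested.

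Otx2, the only transcription factor of the 10, did not follow the other members. Otx2 (chromosome 14, 48656781 to 48667644) was at 26.6, 23.8, 23.6 and 24.9 CPM in Ptch 1 to 4, at 11.1, 20.6 and 22.5 CPM in NKP 1 to 3, and at 12.4, 25.0 and 23.3 CPM in AKP 1 to 3. Every NKP library was below every Ptch library, as were 8.95% of all genes tested. The log2 fold change was -0.44 (SE 0.257, edgeR adjusted p = 0.397), and it ran from -1.12 to -0.20 over the 20 alternatives. The lowest levels were in NKP 1, AKP 1 and NKP 2, the libraries with Mki67 at 0.654, 0.575 and 0.719 CPM. The summed level of 10 proliferation genes was 7.02 to 8.18 CPM in these 3 libraries and 50.6 to 372 CPM in the other 7. That of 10 granule neuron precursor genes was 1348 to 1414 CPM in NKP, 1243 to 1448 CPM in AKP and 1576 to 1701 CPM in Ptch, and Zic1 alone made up 35.7% to 47.4% of it. The sum did not follow the precursor markers Atoh1, Barhl1 and Sfrp1. Atoh1 was at 0 in NKP 1 and AKP 1. Barhl1 was at 10.7 to 15.6 CPM in NKP 1, NKP 2 and AKP 1 and at 33.6 to 145.5 CPM in the other 7 libraries. Sfrp1 was at 6.62, 8.95 and 8.14 CPM in these 3 and at 32.0 to 150.4 CPM in the other 7. Gli1, Mycn and Ccnd1 of the same list were also lowest in these 3, but Zic1, Zic2, Pax6 and Neurod1 were not. Zic2 was highest in AKP 1 (280.9 CPM) and NKP 1 (274.5 CPM). Neurod1 was at 362 CPM in AKP 1 and 354 CPM in NKP 2, beside 168 CPM in AKP 2 and 401 CPM in Ptch 3. The part of precursor or dividing cells in the Otx2 level was not tested.

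The 9 members other than Otx2 were highest in NKP 2, as were 23 of 25 other choroid plexus genes from a separate list and 14.9% of all genes tested. NKP 1, of the same genotype and age label, was the lowest library for 6 of the 10 (Ttr, Clic6, Otx2, Kl, Aqp1 and Slc4a5). The share of all genes that were lowest in NKP 1 was not counted. The NKP 1 level was between 0.257 (Kcnj13) and 0.609 (Folr1) of the NKP 2 level in the 10 genes. The NKP group therefore spanned the whole range seen in the series for Ttr, Clic6, Kl, Aqp1 and Slc4a5, and its SD was 1096 CPM for Ttr, as against 358 CPM in Ptch and 226 CPM in AKP. Without NKP 2 the median log2 fold change of the 10 in NKP against Ptch was 0.04, and in AKP against NKP -0.33.

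Within the Ptch group, both libraries at 2 months were above both libraries at 4 months for 8 of 10 members, all but Otx2 and Aqp1. Of all genes tested, 29% were higher in that way and 33.6% lower, and 0 of the 10 members were lower. The mean of the younger pair was 2.07 times that of the older pair for Folr1, 2.06 times for Kcnj13, 1.96 times for Kl and 1.88 times for Kcne2, but 1.26 times for Ttr and 1.23 times for Clic6. With 2 libraries of each age no test was made, and Ptch 1 and Ptch 2 were also the pair without Y-linked expression and with the highest Mki67. All NKP libraries were labelled 4 months, so that group gives no order by age. In AKP, where only AKP 3 was labelled 4 months, the order varied by gene. Folr1 and Enpp2 were higher in both younger libraries, and Clic6, Kl and Kcne2 were higher in AKP 3. For Ttr, Kcnj13 and Slc4a5, AKP 3 lay between the younger pair. NKP 2 and NKP 3, labelled 4 months, had Kl at 62.4 and 46.4 CPM, and the AKP libraries of both ages lay between 21.2 and 26.2 CPM.

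Dividing each gene by Ttr in the same library showed which members kept a fixed proportion. Clic6 had 14.6 to 17.8 counts per 1000 Ttr counts over the 10 libraries, so its highest ratio was 1.21 times its lowest, while its CPM varied 2.46-fold. Enpp2 had 216 to 324 counts per 1000 Ttr counts. The highest ratio over the lowest was 2.37-fold for Kcnj13, 2.08-fold for Kcne2 and 2.67-fold for Otx2. Slc4a5 was at 4.31 to 5.38 counts per 1000 Ttr counts in the Ptch libraries, 3.83 to 5.26 in NKP and 3.14 to 3.61 in AKP. Its AKP ratios were below those of all other libraries. Aqp1 was at 4.45 to 6.49 in Ptch and 3.38 to 4.36 in AKP, without overlap.

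The same ratio was lower in every AKP than in every Ptch library for 2% of all other genes tested, and for 2 of the 9 members (Aqp1 and Slc4a5). It was lower in every AKP than in every NKP library for 0.359% of all genes and for 3 of 9 (Enpp2, Kcne2 and Slc4a5). In the same way it was higher for 8.78% of all genes in AKP against Ptch and 4.14% in AKP against NKP. Such shares depend on Ttr itself, whose log2 fold change was -0.39 in AKP against NKP. In CPM, 9.52% of all genes were lower in every AKP than in every NKP library, with Enpp2 but not Kcne2 or Slc4a5 among them. These are descriptions, since the ratios also carry the error of Ttr. Otx2 had 9.30 to 14.3 counts per 1000 Ttr counts in Ptch and 5.37 to 8.01 in NKP, without overlap, as did 4.47% of all genes in that direction.

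**Figure D3:**
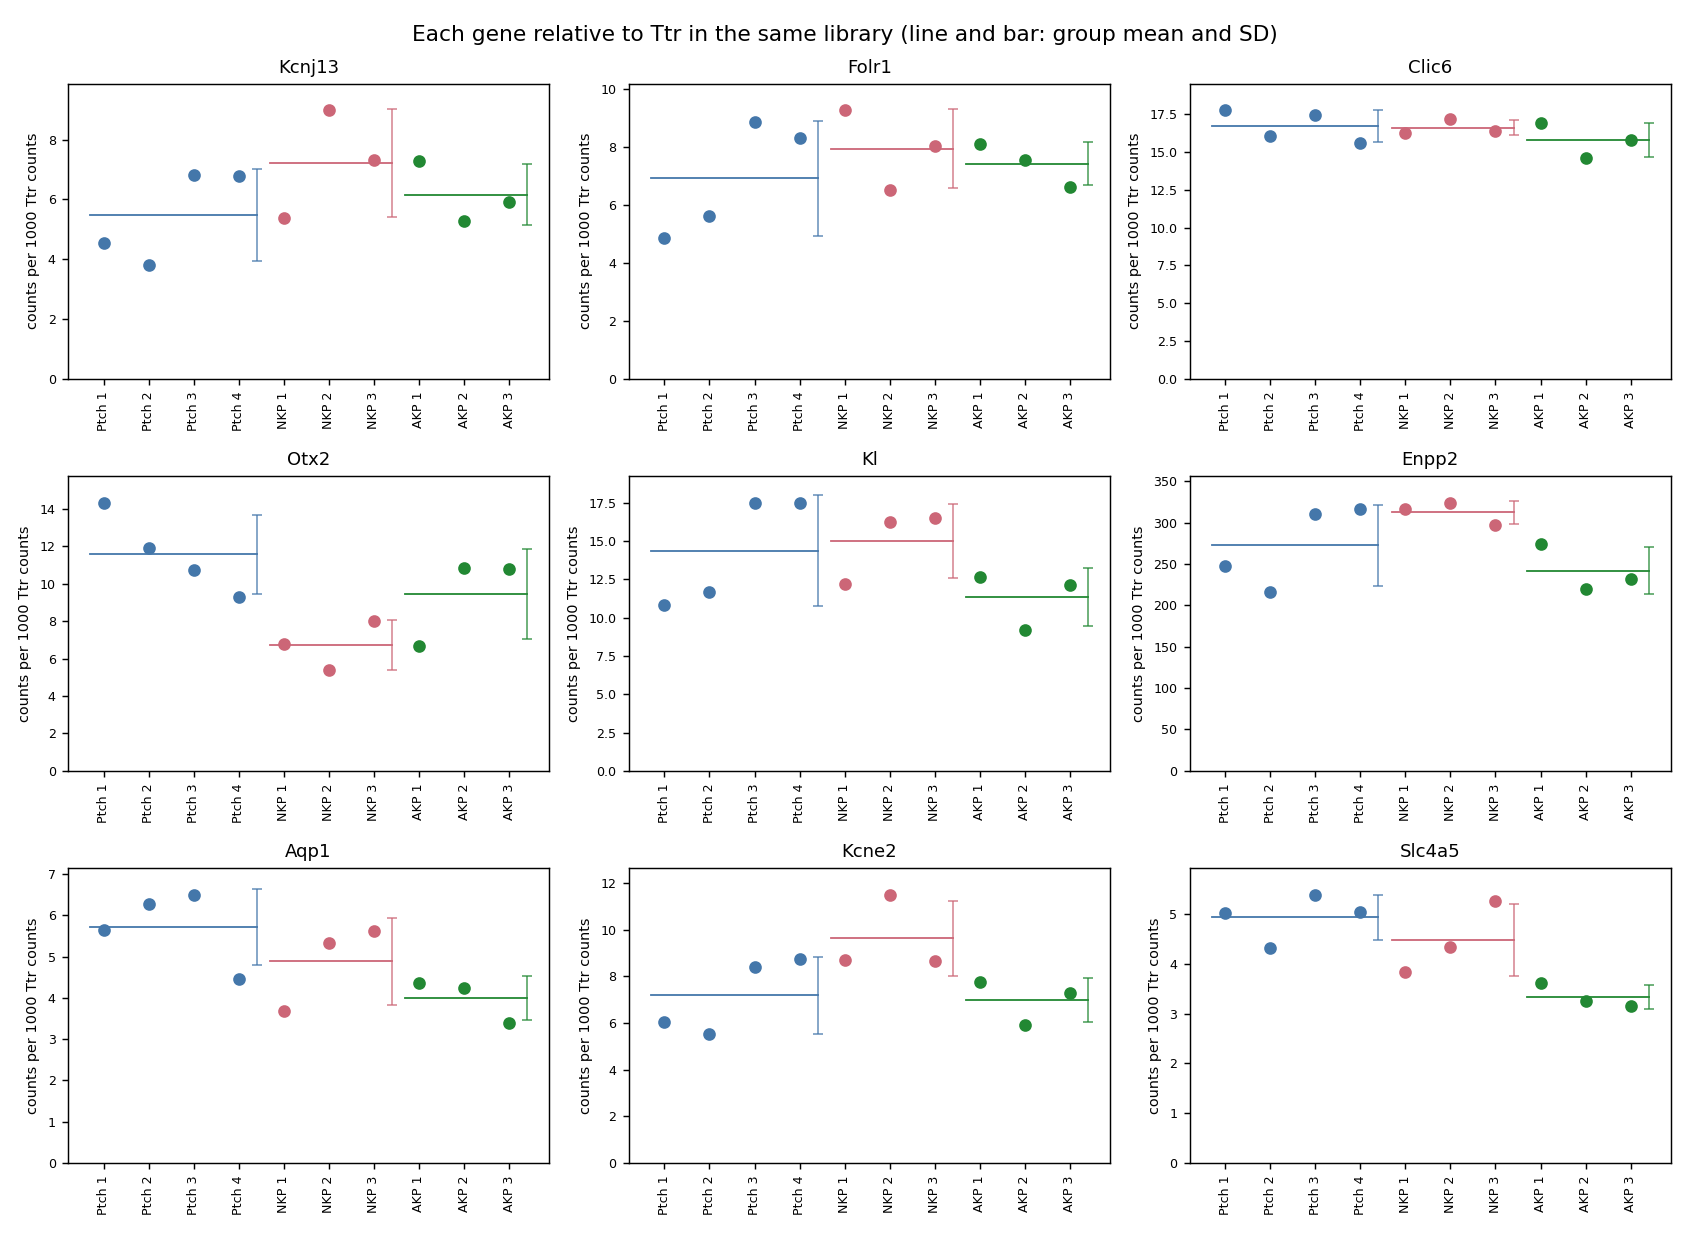
Counts of each gene per 1000 Ttr counts of the same library (y axis, from 0) in the 10 libraries (x axis), coloured by group, with group mean (line) and SD (bar). Clic6 stays between 14.6 and 17.8 in every library, Slc4a5 is lowest in the 3 AKP libraries, and Otx2 is lowest in NKP 2.

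Over the 10 libraries, 8 members correlated with Ttr on the log2 CPM scale with Pearson's r from 0.76 (Folr1) to 0.97 (Clic6). Otx2 had r = 0.40 and Spearman's rho = 0.08. Without NKP 1 and NKP 2, the libraries farthest from the median of Ttr, r ran from 0.53 (Aqp1) to 0.91 (Clic6) in the 8 and was 0.34 for Otx2. These values describe 10 libraries that share scaling and dissection, and no test was attached to them.

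The genes outside the members whose log2 level most resembled their mean standardised level over the 10 libraries were Plce1 (r = 0.97), Ace (0.96), Car12 (0.96), Marchf6 (0.96) and Abca4 (0.95). Ace encodes angiotensin-converting enzyme, and Car12 a membrane carbonic anhydrase. Car12 was at 24.9 CPM in NKP 2 and 7.44 CPM in NKP 1, the highest and lowest libraries, and Ace at 56.3 and 22.5 CPM. For Ttr alone the closest were Plce1 (r = 0.97), Ace (0.93) and Hltf (0.92). Each of these 6 genes was highest in NKP 2, which their choice by likeness made likely, since the members' mean level and Ttr peaked there. Without NKP 2 and NKP 3, the farthest from the median of the members' mean level, r was 0.89 (Abca4) to 0.93 (Plce1). Without NKP 1 and NKP 2, the farthest for Ttr, r was 0.84 (Ace) to 0.92 (Plce1).

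The summed level of 25 other choroid plexus genes was likewise highest in NKP 2. It was 280 to 433 CPM in Ptch, 339, 625 and 442 CPM in NKP 1 to 3 and 357 to 429 CPM in AKP, and none of the 25 was at 0 in any library. Sostdc1, a secreted BMP and Wnt inhibitor, was at 16.7 CPM in NKP 2 and 6.46 to 10.3 CPM in the other 9 libraries. F5, coagulation factor V, was at 19.1 CPM in NKP 2 and 3.39 to 12.0 CPM elsewhere. Prlr, the prolactin receptor, was at 1.46 and 2.27 CPM in Ptch 1 and Ptch 2 and at 13.8 CPM in NKP 2. By edgeR 0 of 25 were called in each comparison, with 4, 2 and 6 at an unadjusted p below 0.05 (17%, 25.1% and 16.9% of all genes), and DESeq2 called 0, 1 and 0. In NKP against Ptch 25 of 25 were above 0, at a median of 0.48 (log2 fold change). Without NKP 2 it was 18 of 25, at a median of 0.18. In AKP against NKP 22 of 25 were below 0 (median -0.48), and without NKP 2 the median was -0.20. The zinc transporter gene Slc39a4 (-1.18) and Drc7, which belongs to the axoneme of motile cilia (-0.96), had the smallest p of the list in that comparison (adjusted p = 0.244 and 0.256, edgeR).

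Genes that work with the members in ion and fluid transport had medians nearer to 0. Of 20 listed, 19 were tested and 0 called in each comparison, at medians of 0.09, -0.04 and -0.19. At an unadjusted p below 0.05 (edgeR) were 5, 5 and 4, beside 17%, 25.1% and 16.9% of all genes. Most of the 20 are also expressed by neurons and glia.

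Of 11 partners of Ttr in thyroid hormone and retinol handling 9 were tested by edgeR. In AKP against Ptch 1 passed (lower), beside 5.68% of all genes, and 0 in the other comparisons. At an unadjusted p below 0.05 were 4, 2 and 2, beside 17%, 25.1% and 16.9% of all genes. The 1 call was lost without any single one of AKP 2, AKP 3 and the Ptch libraries. Slco1c1, which encodes a thyroid hormone carrier, was at 59.8 CPM in NKP 2 and 32.5 to 43.5 CPM in the others (AKP against NKP -0.34, adjusted p = 0.287, edgeR).

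In the lysophosphatidic acid pathway downstream of Enpp2, 8 of 9 listed genes were tested. In AKP against Ptch the receptor gene Lpar1 rose by 0.41 (SE 0.113, edgeR adjusted p = 0.0497) and the phospholipid phosphatase gene Plpp1 by 0.49 (SE 0.132, adjusted p = 0.0478), both close to the threshold. Without AKP 2 their adjusted p was 0.152 and 0.200, and both calls were also lost without AKP 3, NKP 2 or any 1 of the Ptch libraries, and that of Lpar1 without AKP 1. Called higher in AKP against Ptch were 3.38% of all genes tested. In the other comparisons 0 of 8 passed. In NKP against Ptch, AKP against Ptch and AKP against NKP, 2, 4 and 1 of 8 had an unadjusted p below 0.05 (edgeR). The shares of all genes were 17%, 25.1% and 16.9%. Lpar1 was at 34.9 to 42.9 CPM in Ptch, 43.0 to 57.8 CPM in NKP and 49.3 to 54.1 CPM in AKP. Lpar1 is abundant in oligodendrocytes, whose 14 listed genes summed to 6845 to 8386 CPM in Ptch, 8665 to 13696 CPM in NKP and 9964 to 12371 CPM in AKP, with none at 0 in any library. Their part in the Lpar1 difference was not tested.

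In the folate pathway beside Folr1, 0 of 10 genes passed in any comparison by edgeR. At an unadjusted p below 0.05 were 3, 4 and 1, beside 17%, 25.1% and 16.9% of all genes. Of 9 Klotho and FGF receptor genes 5 were tested and 0 passed, and Trpv5 and Slc34a1, both of the kidney, were at 0 in all libraries. Fgfr1, the main partner of Klotho, had -0.14 in AKP against NKP (adjusted p = 0.394, edgeR). Of 16 regulators of choroid plexus and roof plate, 13 were tested and 0 passed. Otx1, the paralogue of Otx2, was at 9.08 and 9.82 CPM in Ptch 1 and Ptch 2, 5.92 and 3.54 CPM in AKP 2 and AKP 3, and 0.0818 to 0.824 CPM in the other 6 libraries.

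Lists of genes of tissues that adjoin the choroid plexus had higher medians than the 10 members in AKP against Ptch. The median log2 fold change there was 0.42 for the ependymal and 0.31 for the meningeal list. It was -0.20 for the members and -0.15 for the 25 other choroid plexus genes. Without Ptch 4 it was -0.04 for the members and 0.13 for the 25. Other lists were also above 0 in AKP against Ptch, with medians of 0.55 (oligodendrocyte), 1.20 (red blood cell) and 0.19 (endothelial). In NKP against Ptch the median was 0.37 for the ependymal and 0.41 for the meningeal list. There it was 0.38 for the members and 0.48 for the 25. The summed level of 14 ependymal and motile cilia genes was 45.6 to 60.9 CPM in Ptch, 58.3 to 79.9 CPM in NKP and 67.1 to 72.7 CPM in AKP, highest in NKP 2. In AKP against Ptch 2 of 14 rose by edgeR, Ccdc153 by 0.93 (adjusted p = 0.0230) and Tekt4 by 1.56 (adjusted p = 0.0467), and 0 of 14 in the other comparisons. Of all genes tested, 3.38% were called higher in AKP against Ptch. Ccdc153, and Ptgds of the meningeal list, lost their calls without any single one of AKP 2, AKP 3, Ptch 1 and Ptch 2, with a highest adjusted p of 0.122 and 0.115 (edgeR), both without AKP 2. Of the fits that left out 1 library, Tekt4 passed only in that without AKP 1, and was at 1.04 (adjusted p = 0.217) without AKP 3. The sum of 15 meningeal fibroblast genes was 1222 to 1732 CPM in Ptch, 1940 to 2704 CPM in NKP and 2337 to 2628 CPM in AKP, again highest in NKP 2, and none of either list was at 0 in any library. Ptgds alone made up 72.4% to 85.9% of that sum, and the other 14 genes summed to 337 to 358 CPM in Ptch, 380 to 539 CPM in NKP and 370 to 392 CPM in AKP. Ptgds, a prostaglandin synthase gene also made by the choroid plexus, rose in AKP against Ptch by 0.90 (SE 0.170, edgeR adjusted p = 0.0211). In NKP against Ptch 9 of the 15 had an unadjusted p below 0.05 (edgeR), beside 17% of all genes, and 0 passed. In AKP against Ptch 2 of the 15 did, beside 25.1% of all genes. Ependymal, meningeal and choroid plexus sums thus shared their highest library, and the part of the dissected tissue in that was not tested. The meningeal sum, with and without Ptgds, was higher in every AKP than in every Ptch library. So were the ependymal, oligodendrocyte, endothelial and red blood cell sums, and 12.9% of all genes tested. The sums of the 10 members and of the 25 other choroid plexus genes were not.

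**Figure D4:**
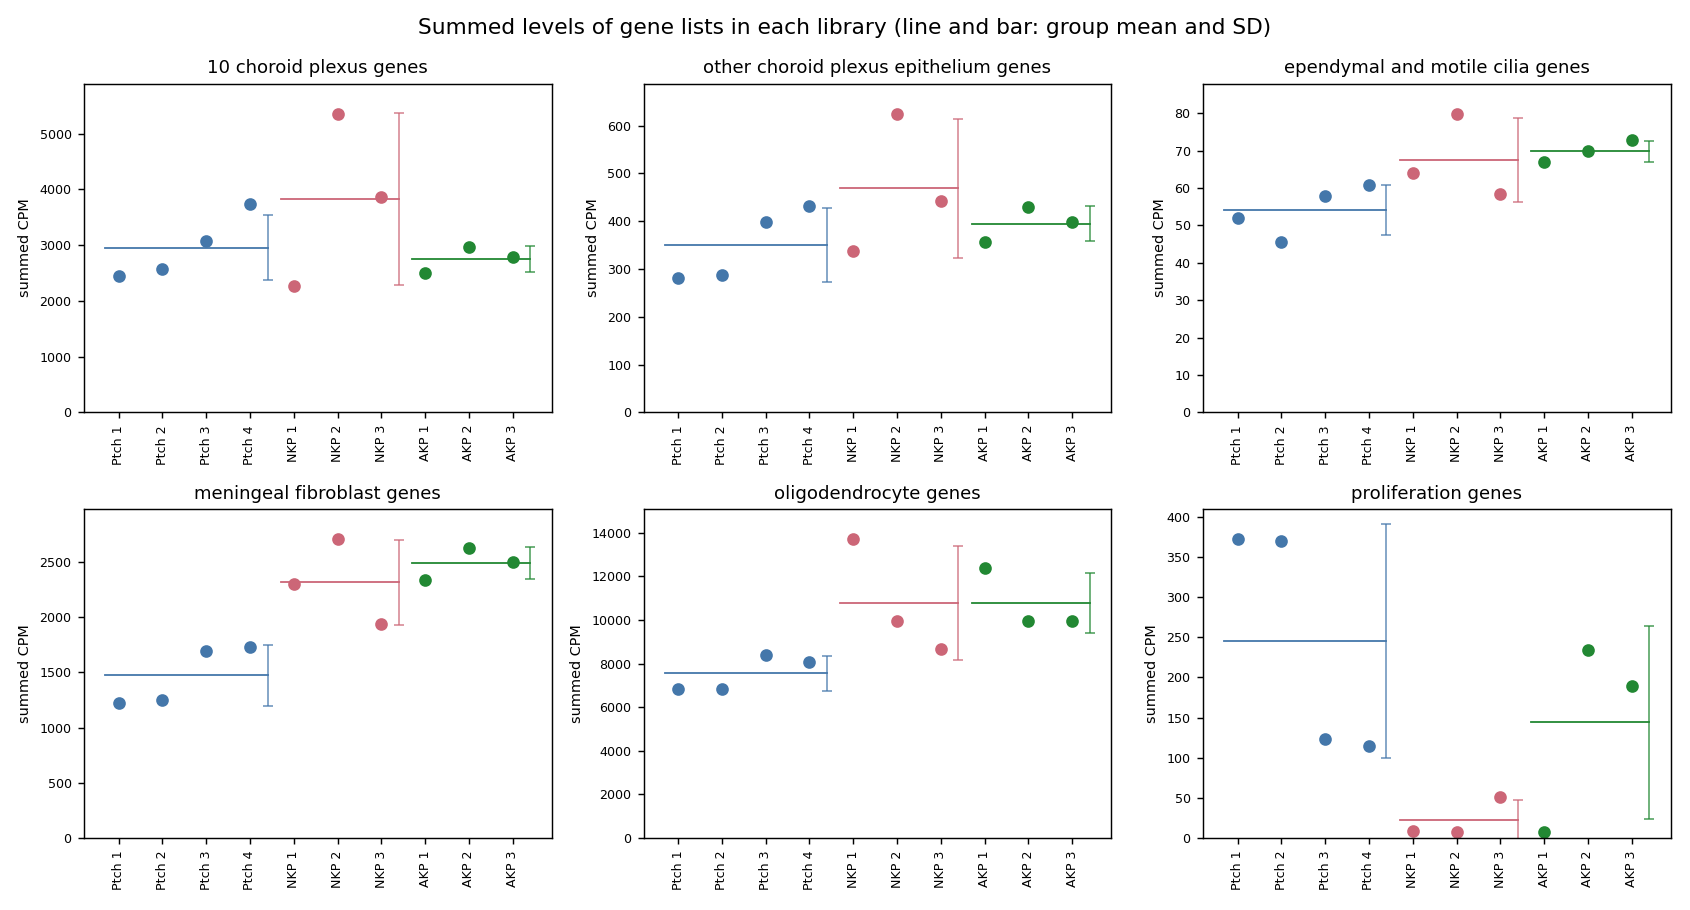
Summed CPM (y axis, from 0) of the 10 choroid plexus genes and of 5 gene lists in each library (x axis), coloured by group, with group mean (line) and SD (bar). The choroid plexus, ependymal and meningeal sums are highest in NKP 2, the oligodendrocyte sum in NKP 1, and the proliferation sum is under 10 CPM in NKP 1, NKP 2 and AKP 1.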

How the data were processed

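Poly-A RNA of 10 libraries was sequenced after a TruSeq v2 preparation, per the labels' protocols. The submitters' processing notes name Trim Galore, STAR, RSEM and GRCm38, and their versions and the annotation are not stated in those notes. The authors deposited whole numbers per gene symbol, taken here as rounded RSEM expected counts. Rounding before the tests changed no value. Of 39769 symbols, 39754 (99.96%) matched RefSeq GRCm38.p6. Transcript lengths came from GENCODE.

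Genes passing filterByExpr (15617) were fitted with edgeR 4.0.16 (R 4.3.3), TMM scaling and the robust quasi-likelihood F test, in 1 fit of 3 groups and 10 libraries, at an adjusted p below 0.05 over all genes. SE is the log2 fold change divided by the root of F. Intervals are 95%. Likeness used log2 CPM with a prior count of 1. Alternatives used DESeq2 1.42.0, other scalings, filters, covariates and libraries left out. The fit was tested on simulated counts. The members and gene lists were chosen with earlier results of these data known. All 10 members were named, with up to 4 genes per other list by a rule: those called in any comparison, and the smallest p in AKP against NKP. Other genes were named outside this rule, among them Sostdc1, F5 and Prlr and some granule neuron precursor genes. Some genes of these lists that the rule would name are not reported here.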

Additional observations from a re-analysis of the deposited data

How the results depend on the processing

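With 3 or 4 libraries a group, the fits cannot show small changes of the members. Over 20 alternatives 0 of 10 members were called in each comparison, with a lowest adjusted p of 0.0509 (Folr1, age as a covariate, edgeR). Of 600 log2 fold changes, 566 had the direction reported and 34 the opposite, and for 5 of them DESeq2 gave no adjusted p. The level of Y-linked genes taken as presence (1 CPM) was chosen after their values were seen, and so was the alternative that also leaves out NKP 2. The cause of the reversals was not tested.

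With NKP 2 left out beside the 4 libraries whose labelled sex was not matched, the NKP group is NKP 1 alone, assumed to vary like the others. NKP against Ptch was then -0.50 for Ttr, -0.53 for Kcnj13, -0.13 for Folr1, -0.46 for Clic6, -0.80 for Kl, -0.30 for Enpp2, -1.01 for Aqp1, -0.26 for Kcne2 and -0.80 for Slc4a5. AKP against NKP was 0.34 for Ttr, 0.54 for Kcnj13, 0.095 for Folr1, 0.29 for Clic6, 0.16 for Kl, 0.56 for Aqp1 and 0.17 for Slc4a5. The median of the 10 in NKP against Ptch was -0.52, and 0.25 without the 4 libraries alone. Folr1 in AKP against Ptch was -0.0048 with no filter, -0.0244 with age, -0.0329 without the 4 libraries and -0.0376 without these and NKP 2.

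Leaving out single libraries moved NKP against Ptch from -0.16 to 0.55 for Aqp1 and from -0.0257 to 0.54 for Slc4a5, both lowest without NKP 2. AKP against Ptch ran from -0.12 to 0.0757 for Ttr, from -0.11 to 0.31 for Kcnj13, from -0.17 to 0.24 for Folr1 and from -0.27 to 0.11 for Kcne2, each highest without Ptch 4. AKP against NKP ran from -0.0855 to 0.41 for Otx2.

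Same-numbered libraries correlated in their deviations from the group means from -0.335 to 0.341, so the numbers were not taken to pair them. With a replicate block, which leaves out Ptch 4, AKP against Ptch was 0.067 for Ttr and 0.14 for Kcne2. The replicate block changed no member's call (0 of 10 in each comparison) and left 0 calls over all genes in AKP against Ptch, where leaving out Ptch 4 without the block left 183 of 887.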
